A study of Mus musculus with 8 samples.

Results

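The genes described here are 34 genes of the T-cell and NK-cell lineages, followed in mouse bone marrow that carried little or no Gfi1. They were chosen by name, as genes that mark T cells (20 genes) or NK cells and the cytotoxic granule (14 genes), by a rule that uses no measured value. The choice was made with earlier results of these data known. All 34 were found among the 41214 gene identifiers counted, and all 34 had enough counts to be tested in each of the 5 comparisons.

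T cells recognise peptides through the T-cell receptor, an antigen-binding pair of chains held at the surface by the CD3 and zeta chains, and pass the signal on through the kinases Lck and Zap70 and the adaptor Lat. NK cells carry no such receptor and weigh activating against inhibitory surface receptors before they release perforin and granzymes. Both lineages descend from lymphoid progenitors of the marrow, T cells mature in the thymus, NK cells mature largely in the marrow, and both are a small minority of marrow cells.

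The study asked how a low dose of Gfi1, a repressor of transcription needed in myeloid and early lymphoid development, differs from its absence. KD mice carry, in place of the mouse gene, a human GFI1 coding sequence whose expression is lowered by an antisense selection cassette in the locus, and KO mice lack Gfi1. RNA of total bone marrow was sequenced from 8 C57Bl6 mice, 2 per group. Ages at sampling, in days, were 39 and 42 for young KD and 48 and 44 for young KO. They were 158 and 101 for old KO and 187 and 78 for sick KD. The labels give AML for the sick KD mice and no AML for the other 6, while the study describes the KD disease as myeloproliferative. Values are given below for replicate 1 and then replicate 2, in the order of these ages. No group has unaltered Gfi1, so every difference is between a KD and a KO marrow or between ages of 1 genotype, and in sick KD mice disease and age cannot be told apart.

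The libraries held 26642067 to 42679114 counts assigned to genes. Reads outside annotated genes made up 42.0% and 38.8% in the sick KD libraries and 26.9% to 33.8% in the other 6, and mitochondrial genes took 1.42% and 1.16% of gene counts in sick KD and 0.464% to 0.787% in the others. Both moved with every difference from sick KD given here, and their part in it was not tested. Gfi1 itself stood at 14 and 14.4 CPM (counts scaled to 1000000 per library with TMM factors) in the libraries labelled young KO and 13.3 and 29.7 in those labelled old KO. In the libraries labelled KD it stood at 6.17 and 7.03 CPM in young and 5.49 and 7.15 in sick mice. Mouse Gfi1 thus had higher values under the KO label than under the KD label (edgeR adjusted p = 0.324 in young and 0.0234 in older mice). How far a mouse annotation counts transcripts of the KD allele, with its human sequence, was not checked. The groups are named by their labels throughout. Marrow was evident in all 8 libraries from the summed CPM of its own cell types, with 3292 to 8090 for 9 neutrophil genes, 5915 to 9670 for 5 monocyte genes and 683 to 4736 for 8 erythroid genes.

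Gfi1 binds DNA at sites built around the letters AATC, and the promoters of some members are shown for that reason. The windows run from 250 bases before to 50 bases after a transcription start, come from RefSeq on GRCm38.p6 and are written on the gene's own strand. Capitals mark AATC on either strand, lengthened to 10 letters where a longer form, AAATC followed after 3 letters by GC, occurred on either strand. Cd3d and Cd3e encode CD3 chains and were the only members with the longer form among those with a promoter at hand. Ncr1 encodes the activating receptor NKp46, and Eomes encodes a T-box factor of NK cells.
Cd3d, chr9:44981536-44981835, plus strand: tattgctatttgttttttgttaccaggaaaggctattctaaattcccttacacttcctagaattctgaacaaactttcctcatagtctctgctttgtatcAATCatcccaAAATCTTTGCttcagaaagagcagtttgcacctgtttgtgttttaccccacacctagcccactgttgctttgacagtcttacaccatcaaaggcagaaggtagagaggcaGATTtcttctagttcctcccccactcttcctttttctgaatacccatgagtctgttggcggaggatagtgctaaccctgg
Cd3e, chr9:45009562-45009861, minus strand: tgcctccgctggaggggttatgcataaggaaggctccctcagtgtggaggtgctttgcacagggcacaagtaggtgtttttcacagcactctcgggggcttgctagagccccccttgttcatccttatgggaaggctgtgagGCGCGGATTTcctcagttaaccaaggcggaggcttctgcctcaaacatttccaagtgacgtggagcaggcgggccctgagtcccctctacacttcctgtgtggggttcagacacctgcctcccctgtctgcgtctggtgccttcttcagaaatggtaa
Ncr1, chr7:4337465-4337764, plus strand: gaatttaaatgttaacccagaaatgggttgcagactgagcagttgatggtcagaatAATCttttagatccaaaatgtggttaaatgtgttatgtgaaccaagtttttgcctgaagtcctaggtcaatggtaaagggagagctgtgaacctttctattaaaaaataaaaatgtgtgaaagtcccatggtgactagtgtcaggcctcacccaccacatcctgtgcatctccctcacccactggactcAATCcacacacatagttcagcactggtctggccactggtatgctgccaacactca
Eomes, chr9:118477939-118478238, plus strand: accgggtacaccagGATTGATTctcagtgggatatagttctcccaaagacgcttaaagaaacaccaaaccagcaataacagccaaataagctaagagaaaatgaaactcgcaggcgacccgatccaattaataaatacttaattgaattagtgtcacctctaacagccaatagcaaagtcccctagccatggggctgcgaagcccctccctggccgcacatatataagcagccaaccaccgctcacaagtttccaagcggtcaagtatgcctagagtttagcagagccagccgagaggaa
Promoters were at hand for 22 of the 34 genes, with 28 starts. AATC occurred in 19 of these 28 windows (67.9%) and in 73.1% of all 32851 windows of this length. The longer form occurred in 2 of 28 and in 2.82% of all windows. The letters GGTGTGA, a core of T-box binding sites, occurred in 1 of 28, at Nkg7, and in 3.98% of all windows. These matches are letters in a window, and binding was not measured.

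In young KD marrow the levels per kilobase of annotated exon spanned a wide range. Nkg7, which encodes a membrane protein of cytotoxic granules, led with 49.7 CPM per kb. The granzyme gene Gzma followed with 18.0 and Cd2 with 7.92. Cd2 is an adhesion receptor of T and NK cells that other marrow cells also express. Gata3, a factor of T-cell development, was lowest with 0.0860. Nkg7 and Gzma held the first and second place and Gata3 the last place in all 4 groups, while Cd2 went from rank 3 of 34 in both young groups to rank 4 in old KO and rank 8 in sick KD. The antigen receptor genes were low in every group, between 0.165 and 3.36 CPM per kb for the 6 CD3, zeta and beta constant genes. Counts per library ran from 4 to 2295 for single members, so the smallest levels rest on few reads. In bulk marrow, fewer cells of a type and less RNA per cell cannot be told apart.

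**Figure D1:**
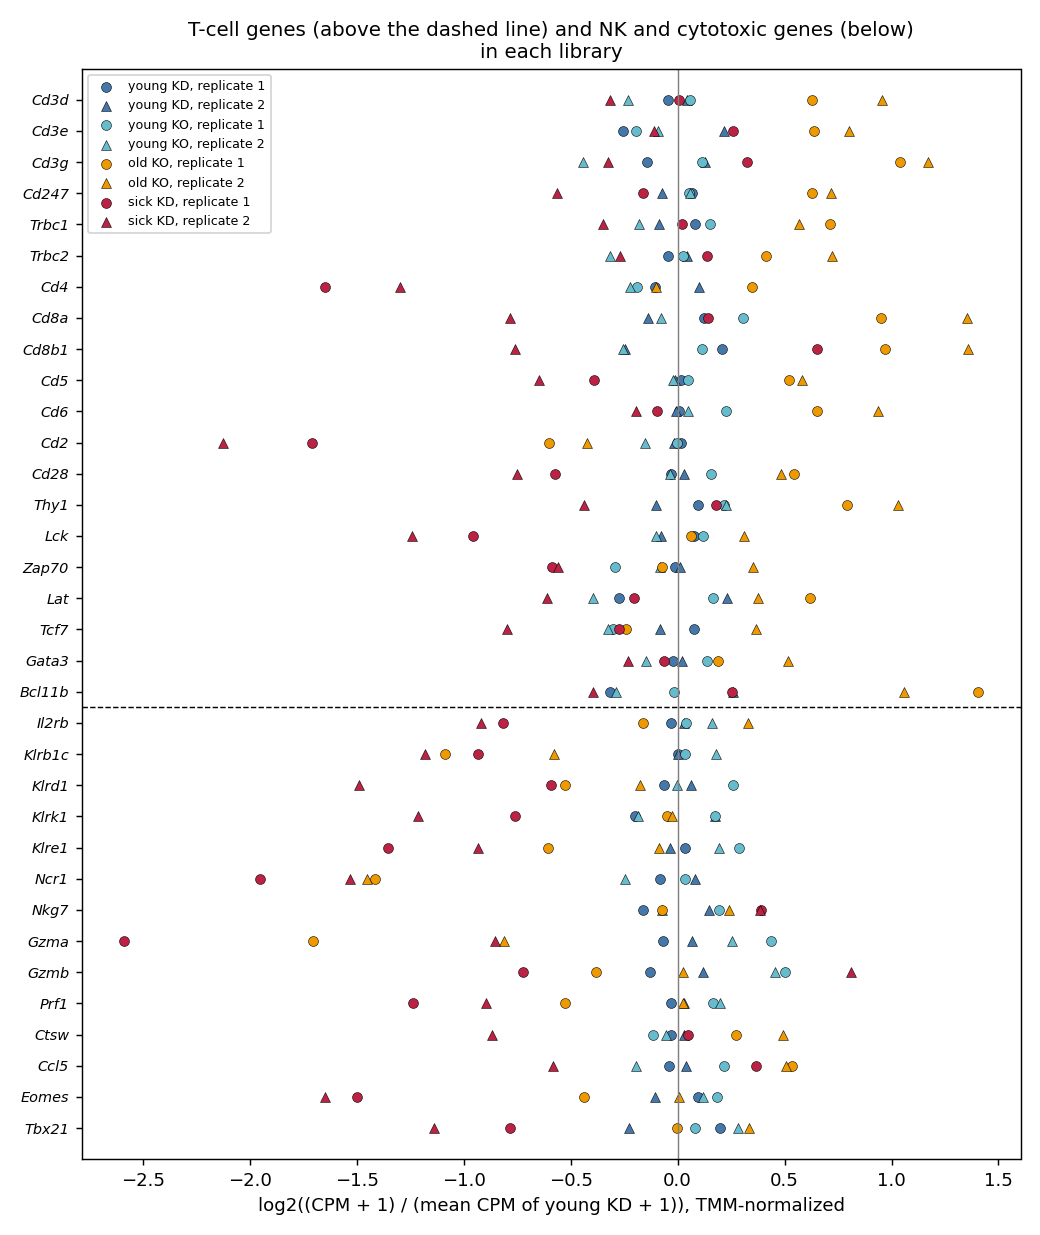
TMM-normalized level of each of the 34 genes in each of the 8 libraries, as log2 of (CPM + 1) over the mean of the young KD libraries plus 1, with 1 point per library, coloured by group and shaped by replicate. The old KO points (orange) lie right of the sick KD points (red) for all 20 T-cell genes above the dashed line, and the sick KD points lie left of 0 for most NK genes below it, with both points of Nkg7 and 1 point each of Gzmb, Ctsw and Ccl5 as exceptions.

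The genes of the T-cell receptor complex were highest in old KO. Cd3d, which encodes the delta chain of CD3, stood at 1.83 and 2.02 CPM in young KD, 2.05 and 1.49 in young KO, 3.52 and 4.67 in old KO, and 1.94 and 1.35 in sick KD. Cd3g, the gamma chain gene next to it on chromosome 9, stood at 2.55 and 3.29 CPM in young KD, 3.25 and 1.89 in young KO, 7.05 and 7.84 in old KO, and 3.92 and 2.13 in sick KD. For both, the 2 old KO libraries were above all 6 others, and the sick KD values overlapped those of the young mice. Cd3e, the epsilon chain gene of the same cluster, gave 0.545 and 1.15 CPM in young KD, 0.614 and 0.731 in young KO, 1.87 and 2.22 in old KO, and 1.21 and 0.711 in sick KD. Cd247, which encodes the zeta chain that NK cells also use, gave 2.93 and 2.56 CPM in young KD, 2.89 and 2.89 in young KO, 4.79 and 5.16 in old KO, and 2.34 and 1.53 in sick KD. Old KO was again above the other 3 groups, and for Cd247 both sick KD libraries were below all young ones. Trbc1, a beta chain constant gene, gave 0.967 and 0.754 CPM in young KD, 1.07 and 0.64 in young KO, 2.04 and 1.76 in old KO, and 0.888 and 0.462 in sick KD. Trbc2, its nearly identical copy on chromosome 6, had group means of 1.23 CPM in young KD, 1.03 in young KO, 2.33 in old KO and 1.15 in sick KD. Reads shared by the 2 copies may have been split or dropped in counting, so the 2 genes are uncertain one by one.

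Coreceptors and other surface receptors differed from each other. Cd8a, the alpha chain of the coreceptor of cytotoxic T cells, stood at 3.35 and 2.62 CPM in young KD, 3.93 and 2.77 in young KO, 6.7 and 9.19 in old KO, and 3.39 and 1.32 in sick KD. Cd8b1, its beta chain gene, stood at 2.36 and 1.45 CPM in young KD, 2.14 and 1.43 in young KO, 4.69 and 6.43 in old KO, and 3.55 and 0.711 in sick KD. Both were highest in the old KO libraries, and in sick KD replicate 1 exceeded replicate 2, 2.58-fold for Cd8a and 5.0-fold for Cd8b1. Cd4, the coreceptor of helper T cells, which plasmacytoid dendritic cells and macrophages can also express, stood at 5.43 and 6.42 CPM in young KD, 5.07 and 4.93 in young KO, 7.82 and 5.46 in old KO, and 1.21 and 1.81 in sick KD. Both sick KD libraries were below all 6 others for Cd4, and the old KO values overlapped those of the young mice.

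Cd2 stood at 14 and 13.6 CPM in young KD, 13.7 and 12.3 in young KO, 8.74 and 10.01 in old KO, and 3.51 and 2.38 in sick KD. It was the one T-cell gene that was lower in both old KO libraries than in both young KO libraries, and it was lower again in sick KD. Cd28, the costimulatory receptor, stood at 6.1 and 6.39 CPM in young KD, 7.07 and 6.06 in young KO, 9.55 and 9.14 in old KO, and 3.88 and 3.31 in sick KD. For Cd28 the old KO libraries were above and the sick KD libraries below all 4 young ones. Cd5, a scavenger-receptor family member that dampens receptor signals, stood at 1.71 and 1.66 CPM in young KD, 1.77 and 1.64 in young KO, 2.85 and 3.01 in old KO, and 1.05 and 0.711 in sick KD. Cd6, its neighbour on chromosome 19, stood at 1.98 and 1.96 CPM in young KD, 2.48 and 2.07 in young KO, 3.67 and 4.7 in old KO, and 1.78 and 1.6 in sick KD. Thy1, a surface glycoprotein of T cells and of some progenitors and stromal cells, stood at 5.73 and 4.89 CPM in young KD, 6.34 and 6.37 in young KO, 9.9 and 11.9 in old KO, and 6.14 and 3.66 in sick KD. All 3 were highest in old KO, and both sick KD libraries were below all young ones for Cd5 and Cd6 but not for Thy1.

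Among the signalling genes, Lck, the kinase that phosphorylates CD3 and zeta, stood at 14.3 and 12.7 CPM in young KD, 14.7 and 12.5 in young KO, 14.1 and 17 in old KO, and 6.46 and 5.12 in sick KD. Sick KD was below the 6 other libraries for Lck, and the young and old groups overlapped. Lat, the adaptor downstream, stood at 4.26 and 6.45 CPM in young KD, 6.14 and 3.84 in young KO, 8.77 and 7.25 in old KO, and 4.52 and 3.17 in sick KD. The old KO libraries were above all others for Lat. Zap70, the kinase recruited by zeta, had group means of 4.09, 3.48, 4.67 and 2.42 CPM in young KD, young KO, old KO and sick KD, with both sick KD values below all others.

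Bcl11b, a factor required for commitment to the T lineage, stood at 0.843 and 1.75 CPM in young KD, 1.27 and 0.883 in young KO, 5.07 and 3.78 in old KO, and 1.74 and 0.747 in sick KD. The 2 old KO libraries were above all 6 others, and the sick KD values overlapped those of the young mice. Tcf7, which encodes TCF-1, a factor of early T cells and NK cells, stood at 2.13 and 1.81 CPM in young KD, 1.41 and 1.37 in young KO, 1.52 and 2.83 in old KO, and 1.45 and 0.711 in sick KD. The young KO and sick KD libraries were below all young KD and old KO libraries. Gata3 had group means between 0.212 CPM in sick KD and 0.724 CPM in old KO.

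All 6 NK receptor genes had their lowest group mean in sick KD. Il2rb, a receptor chain for the cytokines that sustain NK cells, stood at 20.01 and 20.9 CPM in young KD, 21.02 and 23 in young KO, 18.2 and 25.9 in old KO, and 11.2 and 10.3 in sick KD. Klrb1c, the gene of the NK1.1 antigen of this strain, stood at 8.53 and 8.54 CPM in young KD, 8.77 and 9.81 in young KO, 3.49 and 5.39 in old KO, and 4.0 and 3.2 in sick KD. Klrk1, which encodes the activating receptor NKG2D, stood at 11.9 and 15.7 CPM in young KD, 15.7 and 12.1 in young KO, 13.4 and 13.6 in old KO, and 7.75 and 5.41 in sick KD. Both sick KD libraries were below the 4 young ones for all 3, old KO overlapped young KO for Il2rb and Klrk1, and old KO was below young KO for Klrb1c. Klre1, a lectin-like receptor gene of the same cluster on chromosome 6, stood at 3.52 and 3.32 CPM in young KD, 4.39 and 4.05 in young KO, 1.9 and 3.17 in old KO, and 0.727 and 1.32 in sick KD. Klrd1, which encodes CD94, had group means of 4.41 CPM in young KD, 4.93 in young KO, 3.26 in old KO and 1.75 in sick KD. Ncr1, whose NKp46 is largely restricted to NK cells and related innate lymphoid cells, stood at 5.6 and 6.39 CPM in young KD, 6.16 and 4.9 in young KO, 1.62 and 1.56 in old KO, and 0.808 and 1.42 in sick KD. For Klre1, Klrd1 and Ncr1 alike, all old KO and sick KD values were below all young values.

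Granule and chemokine genes did not move as 1 set. Gzma, which encodes granzyme A, stood at 17.2 and 19 CPM in young KD, 24.9 and 21.8 in young KO, 4.86 and 9.88 in old KO, and 2.18 and 9.57 in sick KD. Gzmb, which encodes granzyme B, stood at 4.46 and 5.49 CPM in young KD, 7.45 and 7.19 in young KO, 3.59 and 5.08 in old KO, and 2.62 and 9.5 in sick KD. Gzma was lower in all 4 old or sick mice than in all 4 young mice, whereas the 2 sick KD values of Gzmb lay on either side of all the others. Prf1, which encodes the pore-forming perforin, stood at 4.83 and 5.1 CPM in young KD, 5.68 and 5.85 in young KO, 3.14 and 5.08 in old KO, and 1.53 and 2.2 in sick KD. The sick KD libraries were the lowest 2 for Prf1. Nkg7 was the opposite, at 59.8 and 59.5 CPM in sick KD and between 40.4 and 53.8 CPM in the other 6 libraries. Ctsw, the gene of a cysteine protease of cytotoxic cells, and Ccl5, a chemokine gene of T and NK cells, were highest in old KO, with means of 6.23 and 5.19 CPM against 3.32 to 4.53 CPM in young mice. Their sick KD values were 4.72 and 2.03 CPM for Ctsw and 4.56 and 1.89 CPM for Ccl5, so replicate 1 was above and replicate 2 below all young libraries for both genes.

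Both T-box genes were low in sick KD. Eomes stood at 5.8 and 4.92 CPM in young KD, 6.23 and 5.91 in young KO, 3.7 and 5.39 in old KO, and 1.25 and 1.03 in sick KD. Tbx21, which encodes T-bet, stood at 2.33 and 1.48 CPM in young KD, 2.07 and 2.53 in young KO, 1.9 and 2.65 in old KO, and 0.686 and 0.32 in sick KD. The sick KD values were below all 6 others for both genes, and old KO overlapped young KD for both.

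Averaged over its genes as log2(CPM + 1), the T-cell set stood at 1.95 ± 0.026 (SD, n = 2) in young KD, 1.90 ± 0.14 in young KO, 2.54 ± 0.10 in old KO and 1.52 ± 0.29 in sick KD. The NK set stood at 3.05 ± 0.047, 3.18 ± 0.071, 2.79 ± 0.25 and 2.17 ± 0.019 in the same order. The T-cell mean minus the NK mean was -1.09 ± 0.021 in young KD, -1.27 ± 0.068 in young KO, -0.25 ± 0.15 in old KO and -0.65 ± 0.30 in sick KD. The balance between the 2 sets was thus nearer to the T-cell genes in every old or sick library than in every young one, with the NK mean lower in all 4 and the T-cell mean higher in old KO but lower in sick KD. Several genes of either set are expressed by cells of the other lineage too. With 2 mice a group, an exact two-sided permutation test of 1 value cannot go below p = 0.333, and none was run on these means.

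**Figure D2:**
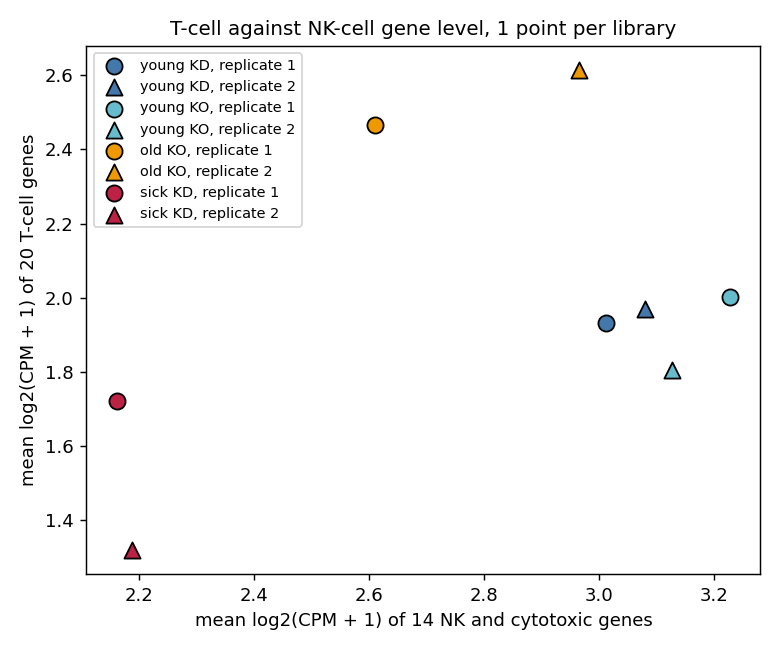
Mean log2(CPM + 1) of the 20 T-cell genes (vertical axis) against that of the 14 NK and cytotoxic genes (horizontal axis), with 1 point per library, coloured by group and shaped by replicate. The young libraries cluster at NK means of 3.01 to 3.23, the old KO libraries stand highest on the T-cell axis, at 2.47 and 2.61, and the sick KD libraries furthest left, at 2.16 and 2.19.

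Young KO was compared with young KD to ask what loss of Gfi1 does beyond a low dose before disease. No T-cell gene and no NK gene passed the test (edgeR quasi-likelihood, adjusted p under 0.05), where 0.0202% of all 14839 genes tested were higher and 0.0202% lower. At an unadjusted p under 0.05 there were 0 T-cell genes and 2 NK genes, and DESeq2 called none of either. Of all 14839 genes tested, 394 had such an unadjusted p, and DESeq2 called 27. The median log2 fold change was -0.09 for the T-cell genes and 0.14 for the NK genes, against -0.0062 for all genes. The 2 NK genes with the largest change were Gzmb (0.55 ± 0.18, log2 ± SE) and Gzma (0.36 ± 0.11), and both libraries labelled young KO were above both labelled young KD for each. The 2 T-cell genes were Tcf7 (-0.51 ± 0.24) and Cd3e (-0.32 ± 0.42), the second with overlapping groups, and the adjusted p of all 4 was 1. Both young KO libraries were above both young KD libraries for 2 T-cell and 7 NK genes (14.9% of all genes tested) and below for 3 T-cell and 1 NK gene (12.2%).

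In older healthy KO marrow the direction of the T-cell genes was nearly uniform, but single genes did not pass the test. Of the 20 T-cell genes, 19 had positive fold changes in old KO against young KO, and for 18 both old KO libraries were above both young KO libraries, where 18.8% of all genes tested were. The median log2 fold change was 0.83, against -0.00063 over all genes. None of the 20 passed the edgeR test, 15 had an unadjusted p under 0.05, and DESeq2 called 5 higher. Of all 14847 genes tested, 1315 had such an unadjusted p, and DESeq2 called 170 higher. The largest changes were those of Bcl11b (2.02 ± 0.30, adjusted p = 0.0573) and Cd8b1 (1.63 ± 0.30, adjusted p = 0.103). Cd2 was the 1 gene with a negative value (-0.48 ± 0.15, adjusted p = 0.372).

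The NK genes were divided in the same comparison, with a median log2 fold change of -0.45. Ncr1 fell (-1.8 ± 0.23, adjusted p = 0.0396), from a mean of 5.53 to 1.59 CPM, where 0.606% of all genes tested were lower and 0.323% higher. Both old KO libraries were below both young KO libraries for 8 of the 14 genes (18.9% of all genes tested). They were above for 2, Ctsw and Ccl5 (18.8%), so the count above was not beyond the share over all genes. Gzma (-1.65 ± 0.32, adjusted p = 0.118) and Klrb1c (-1.06 ± 0.25, adjusted p = 0.195) had the next largest negative values. The call of Ncr1 was lost whichever of the 4 mice was left out, with log2 fold changes from -1.95 to -1.63. B-cell genes moved in this comparison too, with 9 of 9 lower and summed levels of 525 to 653 CPM in young KO and 124 to 178 CPM in old KO. None of 5 plasma cell genes passed the edgeR test, all 5 had an unadjusted p under 0.05 and DESeq2 called 3 higher, with sums of 105 to 124 and 294 to 583 CPM. Of all 14847 genes tested, 1315 had such an unadjusted p, and DESeq2 called 170 higher.

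Sick KD was compared with young KD for the course of the KD disease. Of the 14 NK genes 8 fell and none rose, where 11.4% of all 14656 genes tested fell and 9.45% rose, and of the 20 T-cell genes 4 fell and none rose. The median log2 fold change was -1.30 for the NK genes and -0.43 for the T-cell genes, against 0.013 over all genes. Both sick KD libraries were below both young KD libraries for 10 NK and 10 T-cell genes (32.4% of all genes tested), and above for 1 NK gene, Nkg7, and no T-cell gene (34.3%).

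The NK genes that fell covered receptors, perforin and both T-box factors. Ncr1 fell most (-2.42 ± 0.32, log2 ± SE, adjusted p = 0.00812), followed by Eomes (-2.24 ± 0.26, adjusted p = 0.00608) and Tbx21 (-1.94 ± 0.45, adjusted p = 0.031). The lectin-like receptor genes Klre1 (-1.74 ± 0.34, adjusted p = 0.0198), Klrb1c (-1.25 ± 0.21, adjusted p = 0.0136) and Klrk1 (-1.08 ± 0.24, adjusted p = 0.027) fell as well. So did Prf1 (-1.41 ± 0.27, adjusted p = 0.0188) and Il2rb (-0.93 ± 0.13, adjusted p = 0.00968). The calls of Il2rb, Klrb1c, Klre1, Ncr1, Prf1 and Eomes held whichever mouse was left out, while Klrk1 lost its call in 1 and Tbx21 in 2 of the 4 fits. The 6 genes that did not pass were Klrd1 (-1.34 ± 0.45), Gzma (-1.62 ± 0.56), Ctsw (-0.44 ± 0.39), Ccl5 (-0.05 ± 0.41), Gzmb (0.29 ± 0.54) and Nkg7 (0.39 ± 0.13).

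The T-cell genes that fell were Cd2 (-2.24 ± 0.23, adjusted p = 0.00489), Cd4 (-1.97 ± 0.29, adjusted p = 0.0102), Lck (-1.23 ± 0.19, adjusted p = 0.0116) and Cd28 (-0.81 ± 0.21, adjusted p = 0.0432). The call of Cd28 was lost whichever of the 4 mice was left out. None of the 6 receptor complex genes passed or had an unadjusted p under 0.05, with values from -0.52 ± 0.30 for Cd247 to 0.19 ± 0.47 for Cd3e, and DESeq2 called none of them. Of all 14656 genes tested, 5540 had such an unadjusted p. Cd2, Cd4 and Cd28 are among 8 members that other marrow cells also express, and several lists of other marrow cells were lower too. In sick KD 9 of 9 B-cell genes were lower, with sums of 37.7 to 90.2 CPM against 621 to 760 in young KD. Of 8 dendritic cell genes tested 6 were lower, with sums of 31.5 to 37.0 CPM against 79.5 to 83.1. Of 7 macrophage genes 6 were lower (median log2 fold change -1.42), with sums of 213 to 244 CPM against 255 to 317, and all 8 erythroid genes were lower (median -1.78), with sums of 683 to 1024 CPM against 1560 to 4177. Of 5 monocyte genes 2 rose and of 9 neutrophil genes 2 rose, with none lower in either list. Over all genes tested, 11.4% fell and 9.45% rose. The part of these cells in the changes of the T-cell and NK genes was not tested.

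Old KO was compared with sick KD as the pair of older marrows with and without disease, whose ages overlap. Of the 20 T-cell genes 14 were higher in the libraries labelled old KO and none lower, where 9.93% of all 14470 genes tested were higher and 8.22% lower. Of the 14 NK genes 4 were higher and none lower. Both old KO libraries were above both sick KD libraries for all 20 T-cell genes and 10 NK genes (32.5% of all genes tested), and below for Nkg7 alone (33.5%). Median log2 fold changes were 1.38 for the T-cell genes and 0.90 for the NK genes, against -0.0050 over all genes.

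**Figure D3:**
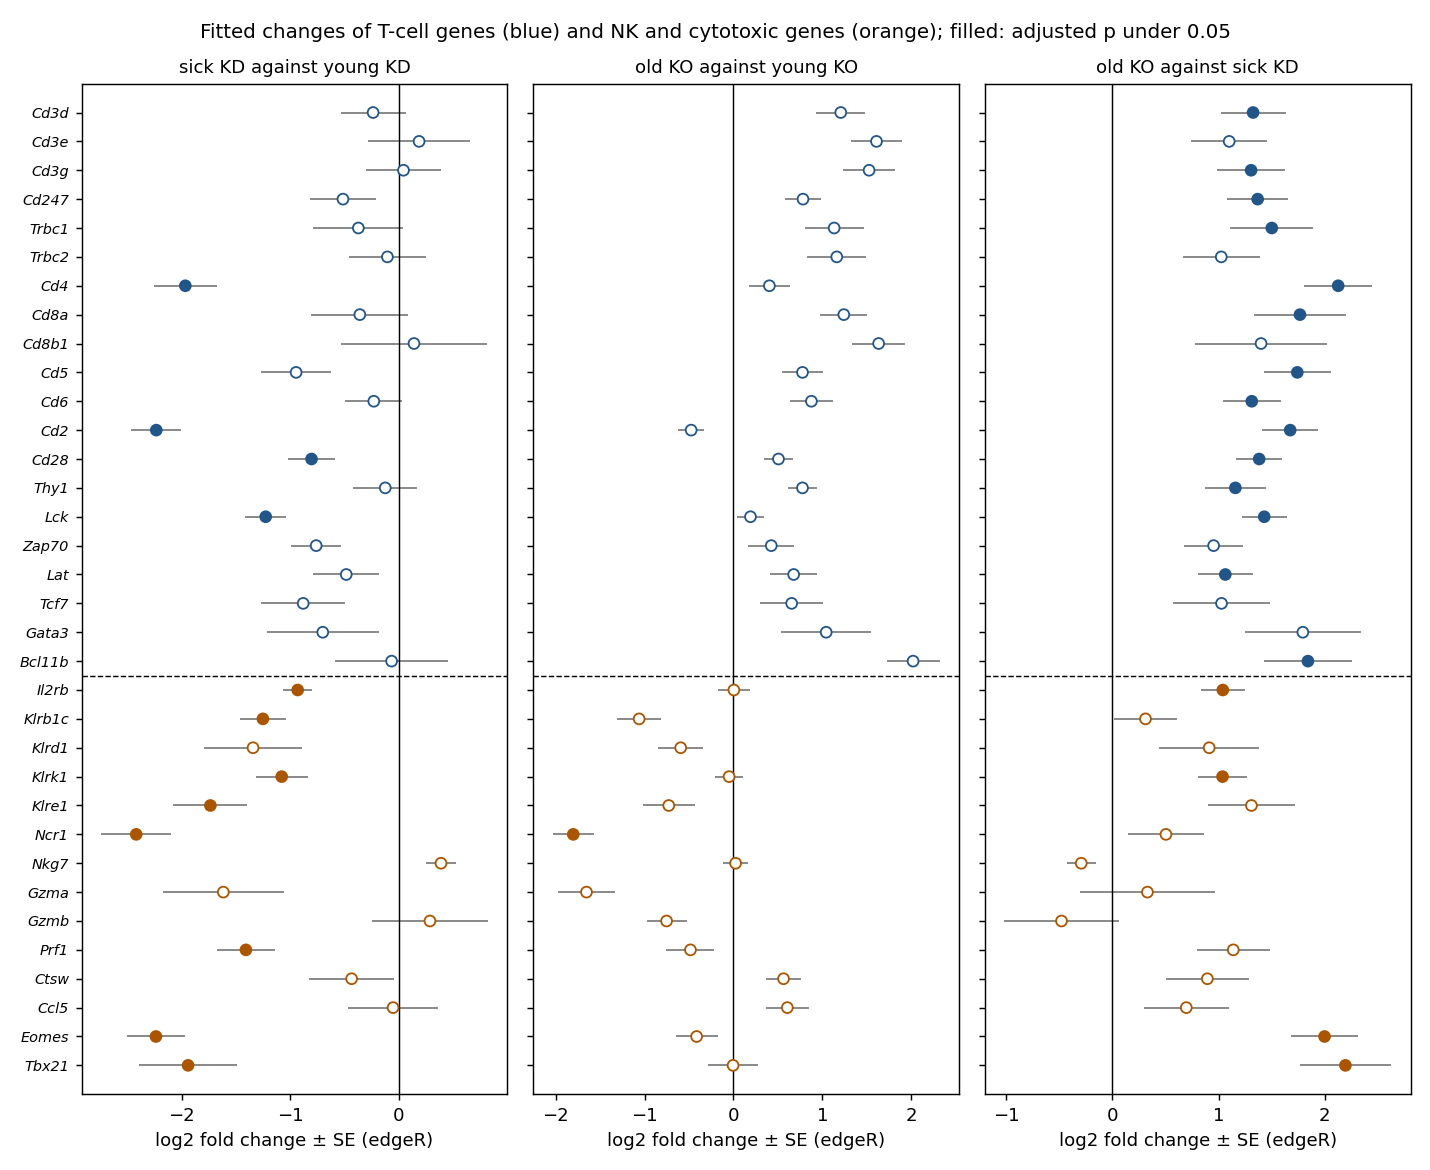
Fitted log2 fold change ± SE (edgeR, 2 mice against 2) of the 34 genes in sick KD against young KD, old KO against young KO and old KO against sick KD, with T-cell genes in blue above the dashed line and NK genes in orange below. Filled points have an adjusted p under 0.05, and they gather among the NK genes in the left panel (8 of 14) and among the T-cell genes in the right panel (14 of 20), with 1, Ncr1, in the middle.

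In the receptor complex, Trbc1 (1.5 ± 0.39, adjusted p = 0.0409), Cd247 (1.37 ± 0.29, adjusted p = 0.0235), Cd3d (1.33 ± 0.31, adjusted p = 0.0293) and Cd3g (1.31 ± 0.32, adjusted p = 0.0339) were higher. Cd3e (1.1 ± 0.36) and Trbc2 (1.03 ± 0.36) had like values and did not pass. Among surface receptors, Cd4 had the largest difference of all T-cell genes (2.13 ± 0.32, adjusted p = 0.00928), then Cd8a (1.77 ± 0.43, adjusted p = 0.0344), Cd5 (1.74 ± 0.32, adjusted p = 0.0149) and Cd2 (1.67 ± 0.26, adjusted p = 0.0101). Cd28 (1.38 ± 0.22, adjusted p = 0.01), Cd6 (1.31 ± 0.27, adjusted p = 0.0219) and Thy1 (1.16 ± 0.29, adjusted p = 0.0353) were higher as well. Cd8b1, with its unequal sick KD mice, had 1.4 ± 0.62 and did not pass (adjusted p = 0.156).

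Lck (1.43 ± 0.21, adjusted p = 0.00885), Lat (1.06 ± 0.26, adjusted p = 0.0347) and Bcl11b (1.84 ± 0.42, adjusted p = 0.028) completed the 14 T-cell genes that were higher. Zap70 (0.95 ± 0.28), Gata3 (1.79 ± 0.55) and Tcf7 (1.03 ± 0.46) did not pass. The 4 NK genes that were higher were Tbx21 (2.2 ± 0.43, adjusted p = 0.0189), Eomes (2.0 ± 0.31, adjusted p = 0.00988), Il2rb (1.04 ± 0.21, adjusted p = 0.0199) and Klrk1 (1.04 ± 0.23, adjusted p = 0.0257). T cells can also express all 4. Ncr1 (0.50 ± 0.36) and Klrb1c (0.31 ± 0.30), which were low in both groups, did not pass. Neither did Klre1 (1.31 ± 0.41), and like them it is not among the genes listed as shared by T and NK cells. The remaining NK genes, all listed as shared, did not pass either. They were Prf1 (1.14 ± 0.34), Klrd1 (0.91 ± 0.47), Ctsw (0.89 ± 0.39), Ccl5 (0.70 ± 0.40), Gzma (0.33 ± 0.63), Gzmb (-0.48 ± 0.54) and Nkg7 (-0.29 ± 0.14). Without sick KD replicate 2, the mouse with the lower T-cell levels, the median log2 fold change of the T-cell genes was 1.09 rather than 1.38. Fewer T-cell genes then passed, whereas calls over all genes did not become fewer.

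Lists of other marrow cells also differed between old KO and sick KD. All 8 erythroid genes, 6 of 7 macrophage genes, 4 of 5 plasma cell genes, 4 of 7 dendritic cell genes tested and 3 of 9 B-cell genes were higher in old KO, and 4 of 8 neutrophil genes tested were lower. Over all genes tested, 9.93% were higher and 8.22% lower. Summed neutrophil levels were 3292 to 4276 CPM in old KO and 6169 to 8090 CPM in sick KD. None of the genes of these lists was at 0 in both mice of any group, and their part in the differences of T-cell and NK genes was not tested.

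**Figure D4:**
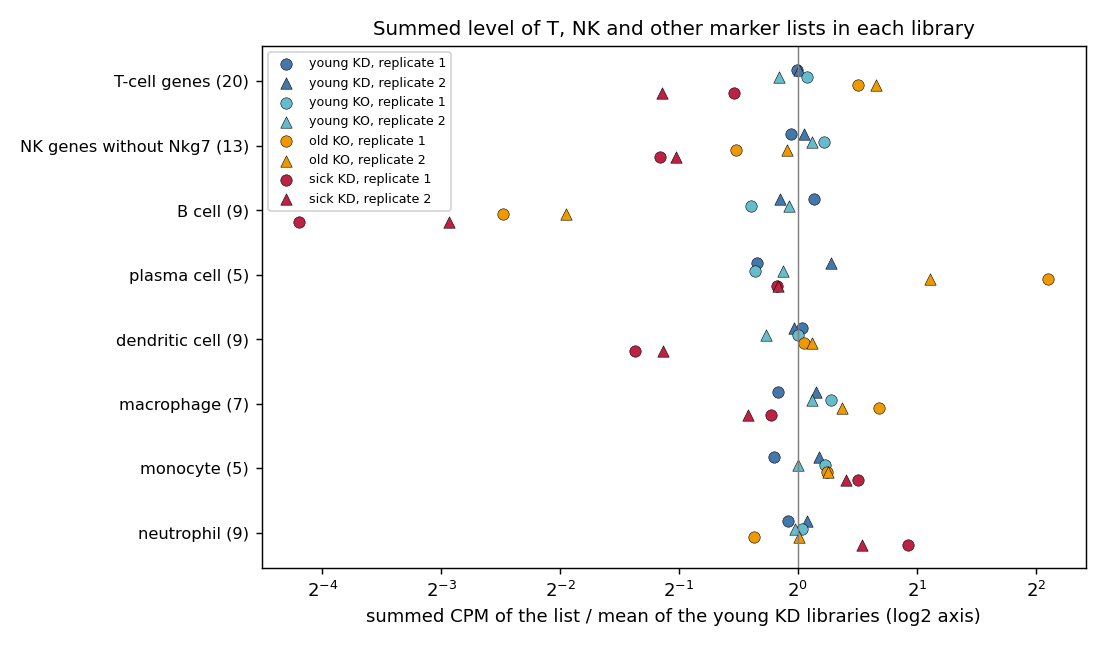
Summed CPM of the T-cell genes, the NK genes without Nkg7 and 6 marker lists of other marrow cells in each library, divided by the mean of the 2 young KD libraries, on a log2 axis with the number of genes in brackets. The T-cell sum was 109 and 121 CPM in old KO against 53.1 and 34.9 CPM in sick KD. The NK sum without Nkg7 was 69.4 and 93.4 against 44.6 and 49.1 CPM. With Nkg7, which was highest in sick KD, the NK sum was 113 and 147 against 104 and 109 CPM. The B-cell sum was lower in all 4 old or sick mice than in all young mice.

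The difference between KO and KD in old or sick mice was then tested against that in young mice in 1 fit of all 8 libraries. It was larger for 5 T-cell genes (Cd4, Cd2, Cd5, Lck and Cd28) and for 1 NK gene, Eomes, where 4.32% of all 15102 genes tested had a positive and 3.11% a negative call. All 20 T-cell genes and 11 of 14 NK genes had positive values, with medians of 1.46 and 0.83 against 0.00045 for all genes. The fit counts the fall in sick KD and any rise in old KO together. Without young KO replicate 1, young KO replicate 2 or young KD replicate 1, the T-cell median was 1.67, 1.30 and 1.41. Calls were lost in those 3 fits among the T-cell genes and over all genes alike.

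Mice of 1 group were not always alike. In sick KD, T-cell genes were higher in replicate 1, the mouse of 187 days, than in replicate 2, of 78 days, for 18 of 20 genes, where 47.8% of all genes were. Zap70 and Cd4 were the exceptions. Granzyme genes went the other way, with Gzma 4.39-fold and Gzmb 3.62-fold higher in replicate 2. Ccl5 was 2.42-fold and Ctsw 2.33-fold higher in replicate 1, and Nkg7 was equal (1.0-fold). Other groups were split as well. In young KO 16 of 20 T-cell genes were higher in replicate 1 (52.5% of all genes), and in old KO 15 of 20 T-cell and 12 of 14 NK genes were higher in replicate 2, where 50.8% of all genes were higher in replicate 1. In young KD 11 of 14 NK genes were higher in replicate 2, while the T-cell genes were evenly divided, 10 each way. The median log2 difference, replicate 1 minus 2, of the T-cell genes was 0.39 in sick KD, 0.20 in young KO, -0.21 in old KO and -0.0073 in young KD. Age, the course of disease and the mouse cannot be told apart here, and these ratios have no replicate check.

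Wider lists of genes of the same lineages were read in the same fits. Of 29 wider T-cell genes tested, 8 were higher in old KO than in sick KD (9.93% of all genes tested), among them the homing receptor gene Ccr7 (2.41 ± 0.31, adjusted p = 0.00587) and the costimulatory receptor gene Icos (2.03 ± 0.36, adjusted p = 0.0134). In sick KD against young KD 7 of 27 fell (11.4% of all genes tested), led by Il2ra (-3.57 ± 0.47, adjusted p = 0.00784), Lef1 (-3.32 ± 0.30, adjusted p = 0.00412) and Ccr7 (-3.22 ± 0.31, adjusted p = 0.00414). Developing B cells express several of these, Lef1, Il7r and Il2ra among them, and the B-cell list had a median log2 fold change of -3.83 in the same comparison. In old KO against young KO, Cxcr6, a chemokine receptor of tissue-resident T cells and NKT cells, rose (2.36 ± 0.22, adjusted p = 0.0231, with 0.323% of all genes tested higher) and none of the other 28 genes passed, where 17 of the 29 had an unadjusted p under 0.05 and DESeq2 called 6 higher and 2 lower. Of all 14847 genes tested, 1315 had such an unadjusted p, and DESeq2 called 170 higher and 213 lower.

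Of the wider NK-cell list, 12 of 33 genes tested fell in sick KD against young KD and 3 rose, where 11.4% of all genes tested fell and 9.45% rose, so the count that rose was near the share over all genes. The activating receptor gene Klra4 (-3.90 ± 0.57, adjusted p = 0.0101), Slamf7 (-2.95 ± 0.20, adjusted p = 0.00262) and Klri2 (-2.83 ± 0.33, adjusted p = 0.00576) fell most. The 3 that rose were Id2 (1.5 ± 0.13, adjusted p = 0.00365), an inhibitor of E proteins that myeloid cells also express, Cd244a (0.91 ± 0.18, adjusted p = 0.0190) and Klrb1f (0.90 ± 0.24, adjusted p = 0.0436). In old KO against sick KD 8 of 31 were higher and 2 lower, where 9.93% of all genes tested were higher and 8.22% lower. The higher ones were led by Slamf7 (2.17 ± 0.30, adjusted p = 0.00686), Klrb1b (2.16 ± 0.39, adjusted p = 0.0141) and Klrg1 (1.75 ± 0.49, adjusted p = 0.0490). Id2 (-1.66 ± 0.14, adjusted p = 0.00346) and Klrb1f (-0.85 ± 0.18, adjusted p = 0.0232) were lower. Klra4 was the 1 wider NK gene of 33 that fell in old KO against young KO (-2.32 ± 0.31, adjusted p = 0.0423, with 0.606% of all genes tested lower). Klra genes have near-identical neighbours, so counts of single Klra genes are uncertain. In young KO against young KD no gene of either wider list passed, with an unadjusted p under 0.05 for 2 of 28 T-cell and 6 of 34 NK genes, and DESeq2 called none. Of all 14839 genes tested, 394 had such an unadjusted p, and DESeq2 called 27. When the KO to KD difference in old or sick mice was tested against that in young mice, 5 of 29 wider T-cell genes were higher, where 4.32% of all genes tested were higher and 3.11% lower. They were led by Ccr7 (2.52 ± 0.38, adjusted p = 0.0153), Trac, the alpha chain constant gene (2.18 ± 0.50, adjusted p = 0.0418), and S1pr1 (2.13 ± 0.44, adjusted p = 0.0332). Of 34 wider NK genes 5 were higher, led by Slamf7 (2.49 ± 0.31, adjusted p = 0.00990), Klrb1b (2.16 ± 0.45, adjusted p = 0.0332) and Cd7 (1.75 ± 0.31, adjusted p = 0.0221), and Id2 was lower (-1.37 ± 0.15, adjusted p = 0.00800).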

How the data were processed

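Total bone marrow RNA of 8 mice was made into stranded poly(A) libraries and sequenced as paired ends. Per the labels and the study's methods, reads were aligned by the authors to mm10 with TopHat2 (version 2.0.10), processed with SAMtools and counted per Ensembl gene with HTSeq, and each deposited value is a raw count. The strand setting of the counting and the Ensembl release are not given in the sources used here. The 5 tally lines of HTSeq were left out. Gene symbols, exon lengths and positions came from GENCODE M21 (40340 of 41214 identifiers matched).

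Counts were tested with edgeR (version 4.0.16) in R (version 4.3.3): TMM factors, filterByExpr, quasi-likelihood test and Benjamini-Hochberg adjustment over all genes tested, on the 4 mice of each pair of groups, and on all 8 for the difference of differences. On simulated data with 200 genes changed 4-fold, 98% were recovered with 10 false calls in young KO against young KD, 96% with 14 in old KO against sick KD, 97% with 6 in sick KD against young KD, 95.5% with 10 in old KO against young KO and 90% with 1 for the difference of differences. The simulated noise was set to the same level for every gene, not estimated from these mice. The recovery therefore does not measure power for smaller changes or for noisier genes. The labels name separate mice. The edgeR p-values set a group difference against the spread between mice, estimated with information shared over genes. All 34 genes are named. Full values are given for those past the threshold and, where none passed, for the 2 T-cell and 2 NK genes with the largest change. From the wider lists up to 3 genes per direction are named, by size of change among those that passed. The genes and lists were chosen with earlier results of these data known, so no p was adjusted over a list alone. Alternatives were DESeq2 (version 1.42.0), other scaling and filters, a GC and length correction, and each mouse left out.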

Additional observations from a re-analysis of the deposited data

Results flagged for a closer look

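In 6 of the 34 genes the difference between KO and KD marrow was larger in old or sick mice than in young mice, tested as a difference of differences in 1 edgeR fit of all 8 libraries, where 4.32% of all 15102 genes tested had a positive and 3.11% a negative call. The values were 2.37 ± 0.37 (log2 ± SE, adjusted p = 0.0160) for Cd4, 1.75 ± 0.27 (adjusted p = 0.0160) for Cd2, 1.72 ± 0.36 (adjusted p = 0.0337) for Cd5, 1.41 ± 0.24 (adjusted p = 0.0218) for Lck, 1.31 ± 0.25 (adjusted p = 0.0259) for Cd28 and 1.82 ± 0.34 (adjusted p = 0.0263) for Eomes. In Cd2 and Eomes, old KO was below young KO (-0.48 ± 0.15 and -0.41 ± 0.24, neither past the threshold) and sick KD was further below young KD. In Cd5 and Cd28, old KO was above young KO (0.78 ± 0.23 and 0.51 ± 0.17, neither past the threshold) and sick KD below young KD. Each call was lost in 3 to 6 of the 8 fits that left out 1 mouse, where the lone mouse of that group was assumed to vary like the others, with adjusted p of up to 0.126. The 2 groups of older KO and KD mice differ in disease as well as genotype, and these cannot be told apart.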

How the results depend on the processing

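All 37 single gene calls kept their direction in every setting, 17 also stayed past the threshold in all of them, 20 lost it when some mouse was left out, and 3 lost it otherwise (Trbc1 with DESeq2, adjusted p = 0.0784, and Thy1 and Lat after the GC, length and span correction, 0.0717 each). In old KO against sick KD, 8 NK genes passed without a filter on low counts, and with 1 mouse left out 6 to 14 T-cell genes did, the 6 without sick KD replicate 2. In old KO against young KO, T-cell calls numbered 5 with DESeq2, 1 with upper quartile factors and 8 without a filter, and 0 to 1 with 1 mouse left out, the 1 without old KO replicate 2. NK calls there numbered 3 with DESeq2 and 3 without a filter, and 0 to 1 with 1 mouse left out, 0 without old KO replicate 1 or either young KO replicate. For the difference of differences, T-cell calls numbered 9 with DESeq2 and 15 without a filter, and 0 to 5 with 1 mouse left out, 0 without either young KO replicate or young KD replicate 1 and 3 without old KO replicate 1 or young KD replicate 2. NK calls there numbered 3 with DESeq2, 5 without a filter (4 higher, 1 lower) and 2 each with upper quartile factors, with at least 10 counts in every mouse and after the GC correction, and 0 to 2 with 1 mouse left out, the 2 without old KO replicate 1 and 0 without old KO replicate 2, either young KO replicate or young KD replicate 1. The T-cell mean minus the NK mean, in young KO minus young KD, went from -0.18 to -0.11 with a pseudocount of 5. In old KO minus young KO it went from 1.03 to 0.56 with that pseudocount, to 1.22 without the 8 T-cell genes that NK cells share and to 1.28 without genes that other marrow cells express. In sick KD minus young KD it went from 0.44 to 0.78 without the latter genes. Apart from what the settings themselves change, the cause was not tested. The GC correction shifted the median of all genes by -0.11 in old KO against sick KD, 0.11 in sick KD against young KD and -0.14 in the difference of differences, and turned the split of calls from 1437 higher and 1189 lower to 1556 and 2317 in the first and from 1385 and 1678 to 3052 and 1817 in the second. Without a filter, 119 rather than 6 genes passed in young KO against young KD and 796 rather than 138 in old KO against young KO, and DESeq2 gave 27 and 383. No paired analysis was possible because the labels give no replicate numbers that the groups share. Members with few counts, such as Gata3 with 4 to 36, limit what 2 mice a group can show.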

Other observations

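Segments of the T-cell receptor beta locus were counted as well. Of 21 Trbv genes, 16 to 19 had at least 1 count in each library. Their counts summed to 169 and 199 in the old KO libraries and to 52 to 119 in the other 6. In CPM the sums were 5.96 and 5.08 in old KO, 2.21 and 2.56 in young KD, 2.70 and 1.74 in young KO, and 3.55 and 1.85 in sick KD, so both old KO libraries were above all others and sick KD overlapped the young mice. The alpha locus was sparser, with 18 to 66 counts over 98 Trav genes in a library. There the sums were 1.16 and 1.68 CPM in old KO and 1.29 and 0.711 CPM in sick KD, against 0.548 to 0.795 CPM in the young mice, so 1 sick KD library was above 1 old KO library. The most counted segment held 10.5% (95% Wilson interval 4.91% to 21.1%) to 19.1% (12.3% to 28.5%) of a library's Trbv counts, and it was Trbv13-2 in 5 of 8 libraries. The intervals cover counting error only.

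Genes of early T-cell precursors and of type 2 innate lymphoid cells were also read in the same fits. Of 7 precursor genes tested in sick KD against young KD, 5 fell and 1 rose, where 11.4% of all genes tested fell and 9.45% rose. Those that fell included Rag1 (-5.91 ± 0.80, edgeR adjusted p = 0.00820) and Rag2 (-4.45 ± 0.60, adjusted p = 0.00816), which developing B cells also use, and Notch1 rose (0.46 ± 0.11, adjusted p = 0.0316). The innate lymphoid list summed to 53.0 to 53.2 CPM in young KD, 55.6 to 56.3 in young KO, 59.3 to 71.6 in old KO and 50.4 to 51.0 in sick KD, and 1 of its 5 genes tested fell in sick KD against young KD (11.4% of all genes tested).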
